A study of Mus musculus with 25 samples.

Results

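The genes described here encode 7 subunits of the GABA-A receptor: the alpha subunits Gabra2, Gabra3, Gabra4 and Gabra5, the beta subunits Gabrb1 and Gabrb2, and the gamma subunit Gabrg1. Every probe set that the array annotation names for one of these genes alone was taken, which gave 21 of 45101 probe sets on the Affymetrix Mouse 430_2.0 array for these 7 of 18193 genes: 5 for Gabra2, 2 for Gabra3, 2 for Gabra4, 1 for Gabra5, 4 for Gabrb1, 5 for Gabrb2 and 2 for Gabrg1. A probe set is a group of short probes designed from one stretch of a transcript, usually near its 3′ end, so a gene can be read several times on one array.

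GABA-A receptors are pentameric chloride channels opened by the inhibitory transmitter GABA, and most hold alpha, beta and gamma or delta subunits. The alpha subunit sets much of the receptor's place in the cell and its sensitivity to benzodiazepines, which bind between alpha and gamma subunits. In CA1, the hippocampal field whose pyramidal cells send out its main output, inhibition by interneurons acts on pyramidal cells through synaptic receptors and through extrasynaptic ones that give a tonic current.

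The arrays came from 11 handled and 14 non-handled females of the inbred strain Balb c/J. Handled pups spent 15 min away from their mothers each morning from postnatal day 1 to day 14, and non-handled litters were left undisturbed. All mice went through behavioral tests at 8 weeks of age, and CA1 was dissected 2 weeks later, so every level below is that of an adult mouse that had been tested. RNA came from RNA/DNA columns in 7 handled and 10 non-handled mice and from Trizol in 4 handled and 4 non-handled mice, and was amplified in a double round and hybridized to 1 array per mouse. The columns were used on a second group of animals, so extraction method and group of animals cannot be told apart. The labels do not give each mouse's litter, so mice were treated as independent, and p-values do not take shared litters into account.

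Levels are log2 of the deposited MAS 5.0 signal, and the spread of signal within an array moved with both handling and extraction. The variance of natural-log signal over all probe sets ran from 3.82 to 4.24 in handled and from 2.88 to 3.76 in non-handled mice with columns, without overlap, and from 3.19 to 3.71 and from 2.85 to 3.18 with Trizol. The handling effect over all 45037 probe sets other than controls had a median of -0.15 on the log2 scale, and 0.056 over those at or above the 85th percentile of mean signal. Quantile normalization moved the first median to 0.023, and scaling each array to the same mean and variance moved it to 0.026. Arrays of the non-handled mice NH162, NH166 and NH165 had the highest mean signals, 910, 858 and 835, where the lowest array had 737. The log2 ratio of 3′ to 5′ control probe sets of Actb, a measure of how complete the amplified RNA is, was 3.24 in NH162 and up to 2.12 in the other mice. For Gapdh that ratio was 1.04 to 1.71 with columns and 1.49 to 1.95 with Trizol.

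The 7 CA1 pyramidal cell markers with a probe set were at percentiles of mean signal from 84.0 (Fibcd1) to 99.0 (Wfs1), and the 8 dentate gyrus markers from 29.6 (Dsp) to 83.6 (Stxbp6). Gabra6, a subunit of cerebellar granule cells, was at the 13.4th percentile. These percentiles serve only to show how bright a probe set is, since signals of different probe sets are not on one scale, and they are no test of the tissue.

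A cluster of 4 of the genes lies together on chromosome 5 of the RefSeq annotation of GRCm38.p6: Gabrg1 (chr5:70751047-70842617, minus strand), Gabra2 (chr5:70958392-71095849, minus strand), Gabra4 (chr5:71569734-71658308, minus strand) and Gabrb1 (chr5:71657921-72149572, plus strand). It spans 1398526 bases, and Gabra4 and Gabrb1 stand head to head with 388 bases of their 5′ ends shared. Gabrb2 lies at chr11:42419515-42632591 on the plus strand, Gabra5 at chr7:57407669-57591016 on the minus strand, and Gabra3 at chrX:72432676-72656919 on the minus strand. The windows of 300 bases around the starts of these genes held from 0 to 25 CG dinucleotides, the sites of DNA methylation in mammals, where the median of 32851 windows of that length was 7. The 250 bases before the annotated starts of Gabra2, Gabra3 and Gabrg1 are printed because they cover this range among the alpha and gamma subunits. They are RefSeq sequence of the strain C57BL/6J, not of Balb c/J, written 5′ to 3′ on the gene's strand with CG dinucleotides in capitals. The Gabra2 stretch (chr5:71095850-71096099, minus strand) holds 18 CG and is 70.0% G or C, the Gabra3 stretch (chrX:72656920-72657169, minus strand) holds 0 and is 42.4% G or C, and the Gabrg1 stretch (chr5:70842618-70842867, minus strand) holds 1 and is 35.6% G or C.
Gabra2: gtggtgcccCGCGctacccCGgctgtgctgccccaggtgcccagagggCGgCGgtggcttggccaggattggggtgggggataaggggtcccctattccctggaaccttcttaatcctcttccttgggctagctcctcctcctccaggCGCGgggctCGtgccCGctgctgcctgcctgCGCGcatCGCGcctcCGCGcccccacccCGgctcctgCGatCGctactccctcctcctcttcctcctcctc
Gabra3: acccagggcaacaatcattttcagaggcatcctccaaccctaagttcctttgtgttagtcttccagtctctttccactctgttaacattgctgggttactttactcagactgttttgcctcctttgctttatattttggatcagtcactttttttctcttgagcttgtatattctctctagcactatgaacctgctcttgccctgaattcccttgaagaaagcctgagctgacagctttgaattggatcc
Gabrg1: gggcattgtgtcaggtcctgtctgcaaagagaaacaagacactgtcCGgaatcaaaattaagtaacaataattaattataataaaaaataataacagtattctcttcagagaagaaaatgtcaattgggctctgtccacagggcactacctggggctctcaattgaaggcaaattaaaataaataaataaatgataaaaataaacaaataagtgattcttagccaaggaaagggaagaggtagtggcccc

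Several short motifs were searched on both strands of the 11 start windows of these genes, some of which have more than 1 start. The cAMP response element TGACGTCA was in 0 of the 11, against 1.79% of all windows, and the EGR site GCGTGGGCG in 0, against 0.612%. TATAAA was in 3 of the 11, in windows of Gabra3 and Gabrb2, against 13.6%. The windows of Gabra3 overlap and share a match, so that match was counted more than once. A match or its lack describes these letters in these windows and says nothing of a factor's binding.

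The first question was whether adult CA1 levels of the subunits differed between handled and non-handled mice, with extraction method as a term in the fit. Handling changed 8 of the 21 probe sets at an adjusted p under 0.05 in limma, or 38.1%, against 11.5% of the 45037 probe sets tested. Of the 8, 6 were higher in handled mice, where 3.58% of all probe sets were, and 2 were lower, where 7.93% of all were. The 6 higher ones stood for Gabra2, Gabra3, Gabra4, Gabra5, Gabrb1 and Gabrb2, and no Gabrg1 probe set was called. In bulk tissue such as this, fewer cells of a type and less RNA per cell cannot be told apart. Direction went with brightness. Among the 14 probe sets at or above the 85th percentile of mean signal, 6 were called, all higher, against 21.5% called and 14.3% higher among all probe sets that bright. Among the 7 dimmer ones, 2 were called, both lower, against 8.05% lower among all such probe sets. The median effect was 0.12 over the 21 probe sets and 0.22 over the 14 bright ones, beside -0.15 and 0.056 over all probe sets in the same ranges.

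**Figure D1:**
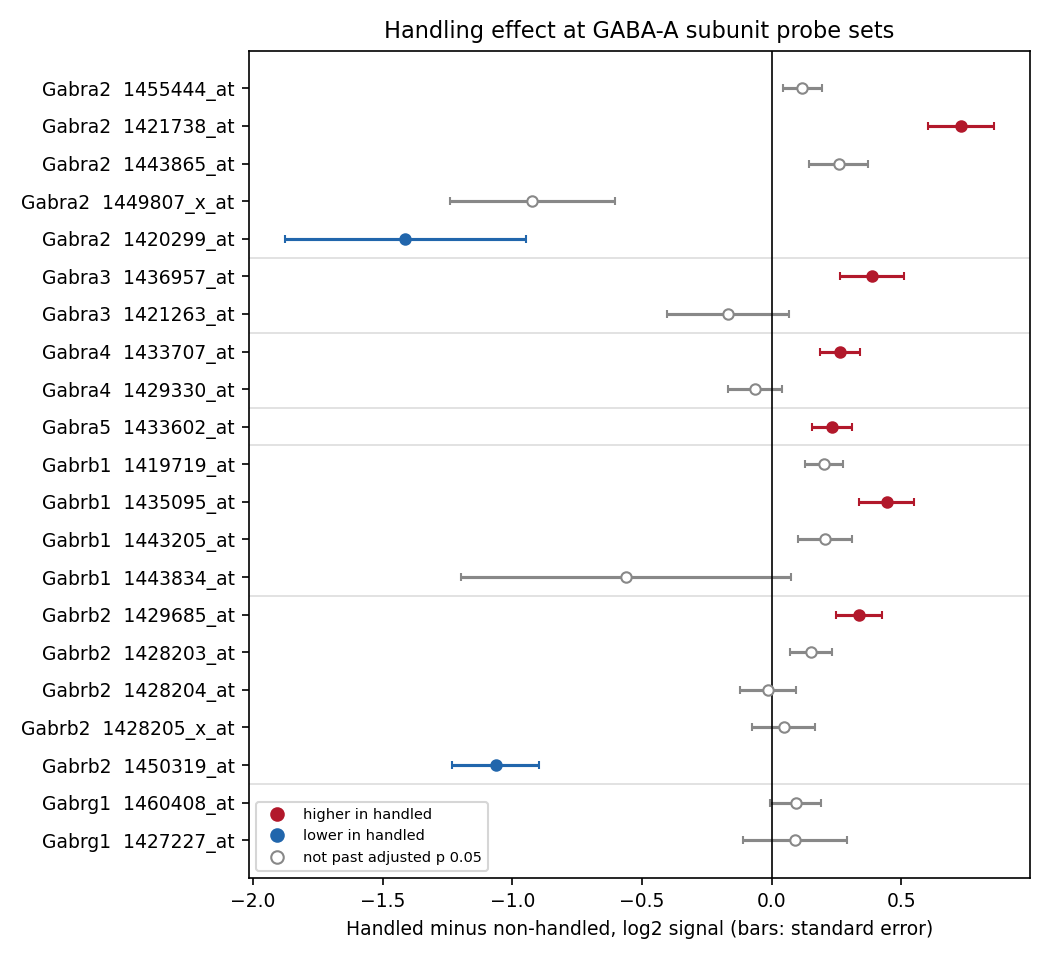
Handling effect (handled minus non-handled, log2 signal, extraction as a term) at each of the 21 probe sets, grouped by gene from the brightest to the dimmest, with bars for the standard error over 25 mice. Filled red points (6) were higher and filled blue points (2) lower at an adjusted p under 0.05 in limma, and open points did not pass.

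Gabra2, a synaptic alpha subunit found at inhibitory contacts on the axon initial segment of pyramidal cells, gave the largest rise among the 21, at 1421738_at. Its log2 signal in columns mice was 10.90 at the lowest, 11.18 at the median and 11.32 at the highest in handled, and 9.51, 10.44 and 10.94 in non-handled. In Trizol mice it was 11.03, 11.22, 11.30 and 11.33 in handled and 10.31, 10.58, 10.99 and 11.11 in non-handled. In 6 of 7 handled columns mice and in 3 of 4 handled Trizol mice the level was above every non-handled mouse of the same extraction. The effect was 0.73 (SE 0.13), 1.66-fold, with an adjusted p of 3.45e-04 in limma. Within columns it was 0.85 and within Trizol 0.48.

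No other Gabra2 probe set was called higher in this fit. The brightest, 1455444_at, ran from 12.19 to 12.62 in handled and from 12.15 to 12.55 in non-handled columns mice, groups that overlap nearly throughout. Its effect was 0.12 (SE 0.075, adjusted p = 0.316). At 1443865_at, with 10.26 to 10.90 in handled and 9.66 to 10.78 in non-handled columns mice, the effect was 0.26 (SE 0.11, adjusted p = 0.134). The 2 dimmest, 1449807_x_at and 1420299_at, were designed from the same source sequence and pointed the other way. At 1420299_at, which stood at the 6.59th percentile of mean signal, columns mice had 0.35, 2.47 and 4.24 in handled and 2.33, 3.79 and 5.59 in non-handled (lowest, median and highest). The same probe set in Trizol mice gave 2.97, 3.64, 3.73 and 4.96 in handled and 3.75, 5.43, 6.17 and 6.68 in non-handled. The groups overlapped under both extractions, and the fitted effect was -1.41 (SE 0.47, adjusted p = 0.0446). With an offset of 32 added to each signal before the log, it was -0.46 (adjusted p = 0.0531), so at this dim probe set the size and the call rest on the scale at low signal. At 1449807_x_at the effect was -0.92 (SE 0.32, adjusted p = 0.0538), with -0.43 within columns and -1.93 within Trizol.

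Gabra3, an alpha subunit best known from the thalamic reticular nucleus and monoaminergic neurons, was higher in handled mice at the brighter of its probe sets. The log2 signal of 1436957_at in columns mice was 10.04, 10.41 and 10.63 in handled and 9.12, 9.81 and 10.31 in non-handled (lowest, median and highest), and 5 of 7 handled mice were above every non-handled one. In Trizol mice the values were 9.70, 9.73, 9.96 and 10.20 in handled and 9.65, 9.74, 10.02 and 10.03 in non-handled, which overlap throughout. The effect was 0.39 (SE 0.12, adjusted p = 0.0372), made of 0.56 within columns and 0.033 within Trizol. The interaction of 0.53 (SE 0.25) between these had an adjusted p of 0.655, so the effects were not shown to differ. At the dimmer 1421263_at, with 6.35 to 7.30 in handled and 5.51 to 7.97 in non-handled columns mice, the effect was -0.17 (SE 0.24, adjusted p = 0.682).

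Gabra4, which pairs with the delta subunit in extrasynaptic receptors, was higher at 1433707_at. Columns mice had 11.45, 11.73 and 11.77 in handled and 10.89, 11.46 and 11.75 in non-handled. Trizol mice had 11.74, 11.92, 11.95 and 12.04 in handled and 11.50, 11.65, 11.66 and 11.76 in non-handled. Only 1 of 7 handled mice with columns but 3 of 4 with Trizol lay above all non-handled mice, and the effect of 0.26 (SE 0.077, adjusted p = 0.0254) was 0.26 within columns and 0.27 within Trizol. At 1429330_at the effect was -0.065 (SE 0.10, adjusted p = 0.724), with -0.23 within columns and 0.28 within Trizol. The interaction at that probe set was -0.51 (SE 0.20), with an unadjusted p of 0.0167 and an adjusted p of 0.591.

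Gabra5, the alpha subunit of the extrasynaptic receptors that carry much of the tonic current of hippocampal pyramidal cells, has 1 probe set, 1433602_at. In columns mice it ran at 12.29, 12.53 and 12.72 in handled and at 11.99, 12.35 and 12.53 in non-handled (lowest, median and highest), and 4 of 7 handled mice exceeded all non-handled mice. Trizol mice had 11.85, 11.87, 12.07 and 12.42 in handled and 11.50, 11.82, 11.90 and 11.95 in non-handled. The effect was 0.23 (SE 0.076, 1.18-fold, adjusted p = 0.0419), with 0.22 within columns and 0.26 within Trizol.

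Gabrb1, a beta subunit that helps form the GABA binding site, was higher at 1435095_at. Its log2 signal in columns mice was 12.30, 12.50 and 12.84 in handled and 11.29, 12.17 and 12.40 in non-handled, and 6 of 7 handled mice were above every non-handled mouse. Trizol mice had 13.14, 13.17, 13.28 and 13.39 in handled and 12.66, 12.93, 13.09 and 13.22 in non-handled, with 2 of 4 handled above all others. The effect was 0.44 (SE 0.11, 1.36-fold, adjusted p = 0.00652), with 0.53 within columns and 0.27 within Trizol. At 1419719_at the effect was 0.20 (SE 0.073, adjusted p = 0.0646), and at 1443205_at 0.20 (SE 0.10, adjusted p = 0.198). The dimmest, 1443834_at, spread from 1.29 to 7.90 among non-handled columns mice alone and gave -0.56 (SE 0.64, adjusted p = 0.601).

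Gabrb2, a beta subunit widespread in the brain, held called probe sets in both directions. The brightest, 1429685_at, was at 12.25, 12.48 and 12.79 in handled and 11.82, 12.12 and 12.60 in non-handled columns mice. In Trizol mice it was at 12.65, 12.81, 12.93 and 13.22 in handled and 12.47, 12.50, 12.78 and 12.89 in non-handled. The groups overlapped under both extractions, and the effect was 0.34 (SE 0.088, 1.26-fold, adjusted p = 0.0128), with 0.38 within columns and 0.24 within Trizol. The dimmest, 1450319_at, at the 66.2nd percentile of mean signal, went the other way. Columns mice had 6.81, 6.99 and 7.68 in handled and 7.32, 8.19 and 8.89 in non-handled, and 6 of 7 handled mice were below every non-handled one. Trizol mice had 7.05, 7.28, 7.67 and 8.47 in handled and 8.43, 8.47, 8.49 and 8.82 in non-handled, with 3 of 4 handled mice below every non-handled one. The effect was -1.06 (SE 0.17), so handled mice had 0.478 of the non-handled signal, with an adjusted p of 8.75e-05, the smallest of the 21. Within columns it was -1.13 and within Trizol -0.93. The remaining probe sets, 1428203_at, 1428204_at and 1428205_x_at, were designed from one source sequence and had effects of 0.15, -0.014 and 0.047, with adjusted p from 0.222 to 0.950.

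Gabrg1, a gamma subunit of restricted distribution in the brain, was not called. At 1460408_at handled and non-handled columns mice ran from 9.86 to 10.37 and from 9.71 to 10.71, and the effect was 0.094 (SE 0.099, adjusted p = 0.569). At 1427227_at, designed from the same source sequence, it was 0.091 (SE 0.20, adjusted p = 0.809).

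**Figure D2:**
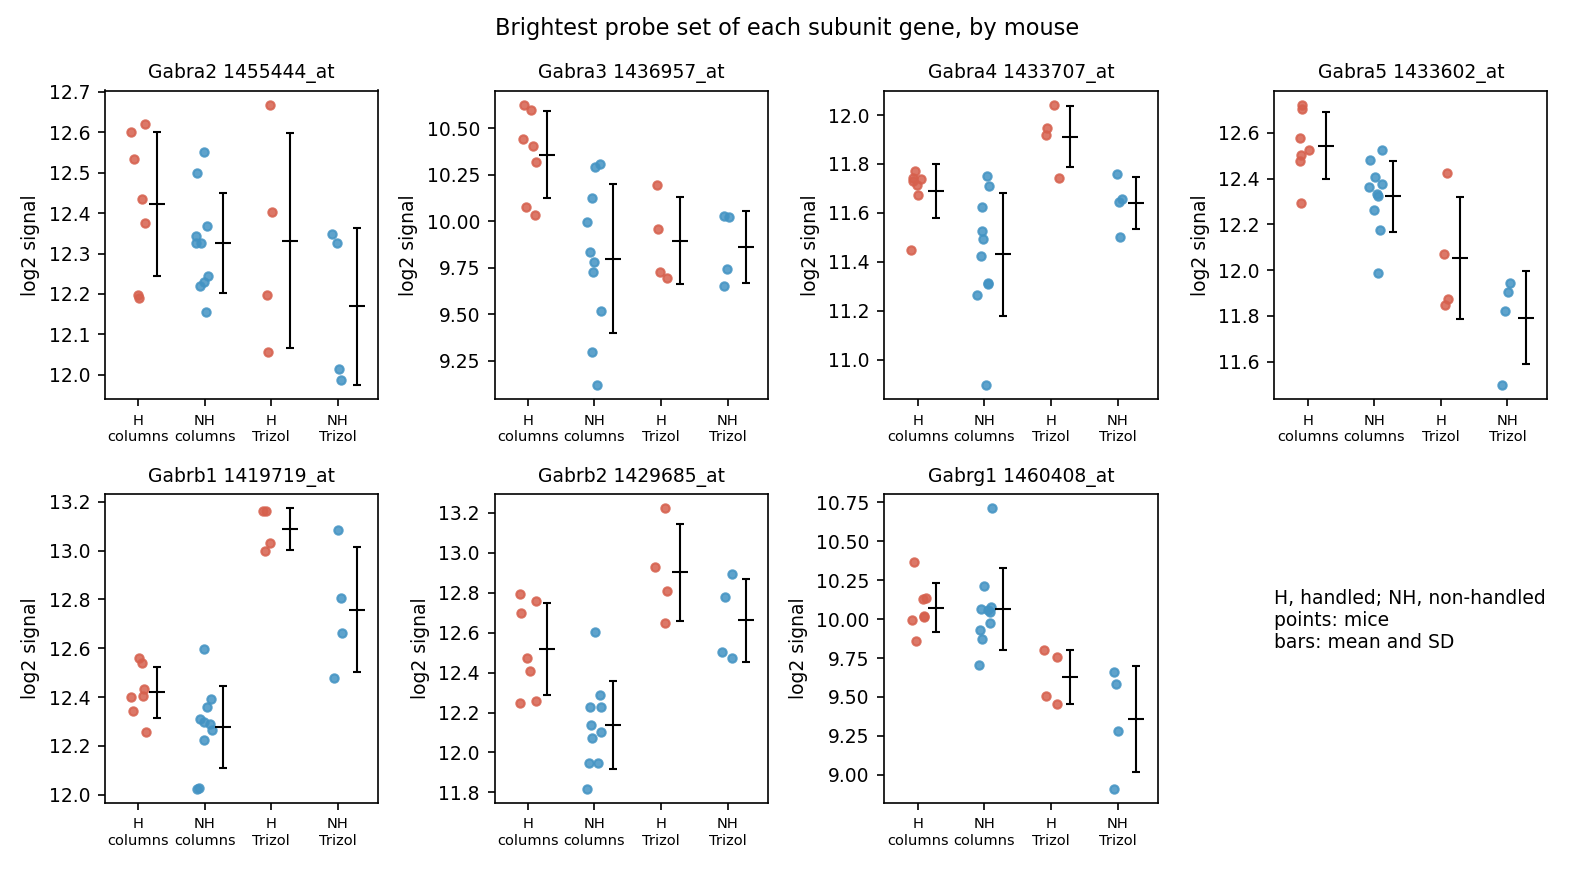
Log2 signal of the brightest probe set of each of the 7 genes in every mouse, by handling (H, handled; NH, non-handled) and extraction, with mean and SD beside the points and a separate axis range for each gene. On the deposited scale Gabra3, Gabra4, Gabra5 and Gabrb2 were higher in handled mice past the threshold, and with columns Gabra4, Gabrb1 and Gabrb2 were lower and Gabra5 and Gabrg1 higher.

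Taking the brightest probe set of each gene alone, 4 of 7 were higher in handled mice, against 4.47% of 18193 genes taken the same way and 14.3% of all probe sets at or above the 85th percentile. After quantile normalization 1 of these 4 calls was left (Gabrb2), and after scaling each array 1 (Gabra3). On the deposited scale all 7 effects were above 0, though Gabra2 was at -0.026 after scaling each array to the same mean and variance. At none of the 21 probe sets did every handled mouse lie beyond every non-handled mouse of the same extraction. Over all probe sets that happened upward in 0.502% with columns and 0.908% with Trizol, and downward in 1.13% and 2.94%. Within columns mice alone, 5 of the 21 were called, 4 higher and 1 lower, against 12% of all probe sets called, 4.36% higher and 7.65% lower. The 5 were 1421738_at of Gabra2, 1436957_at of Gabra3, 1435095_at of Gabrb1, and 1429685_at and 1450319_at of Gabrb2. Within the 8 Trizol mice limma called 0 of the 21 and 0 of 45037, or 0% (at an unadjusted p under 0.05, 5 and 2870, the latter 6.37%). The interaction of handling and extraction was called at 0 of the 21 (3 at an unadjusted p under 0.05), against 0.0511% of all probe sets (7.47% unadjusted).

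The calls depended on how the spread of signal within an array was treated. After quantile normalization 4 of the 21 were called (3 higher and 1 lower), against 2.93% higher and 3.54% lower of all probe sets. After scaling each array to the same mean and variance 3 were called (2 higher and 1 lower), against 3.83% and 4.11% of all, and 2 higher and 1 lower within columns. The median effect of the 21 was 0.096 and 0.064 on these scales, beside 0.023 and 0.026 over all probe sets. The calls at Gabra2 1421738_at and Gabrb2 1450319_at stood under every alternative that was run, with effects from 0.55 to 0.85 and from -1.15 to -0.88. The other calls were lost under at least 1 scaling. Gabra5 1433602_at and Gabra4 1433707_at had adjusted p of 0.125 and 0.0856 after quantile normalization and Gabra3 1436957_at of 0.0692, while Gabrb1 1435095_at and Gabrb2 1429685_at had 0.104 and 0.219 after scaling. At Gabra2 1420299_at adjusted p was 0.213 and 0.186. Without H108, H110 or H118 the count of 8 became 5.

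Probe sets of one gene were then compared directly, as the difference in log2 signal between each probe set and the brightest of its gene in the same mouse. Handling changed this difference at 6 of 14 pairs, against 7.01% of the 16752 pairs of all genes. Of the 6, 1 was higher and 5 were lower relative to the brightest probe set, where 2.66% and 4.36% of all pairs were. At Gabra2, 1421738_at gained 0.61 (SE 0.14, adjusted p = 0.00924) on the brightest probe set, while 1449807_x_at changed against it by -1.04 (adjusted p = 0.0370) and 1420299_at by -1.53 (adjusted p = 0.0222). At Gabrb2, 1450319_at changed against the brightest by -1.40 (SE 0.18, adjusted p = 1.67e-05), 1428204_at by -0.35 (adjusted p = 0.00760) and 1428205_x_at by -0.29 (adjusted p = 0.0481). No pair of Gabra3, Gabra4, Gabrb1 or Gabrg1 passed, with adjusted p from 0.0749 to 0.995. Across mice, after handling and extraction were removed, 1428204_at and 1428205_x_at followed the brightest Gabrb2 probe set (Pearson r of residuals 0.76 and 0.77, n = 25), while 1450319_at did not (r = -0.00052). At Gabra2, the residuals of 1421738_at had r = 0.12 with those of 1455444_at. Without H108, 3 of the 14 pairs were called. After quantile normalization 3 pairs were called (1 higher and 2 lower), against 3.66% and 2.33% of all pairs, and after scaling 2 (1 higher and 1 lower), against 5.87% and 2.2%.

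**Figure D3:**
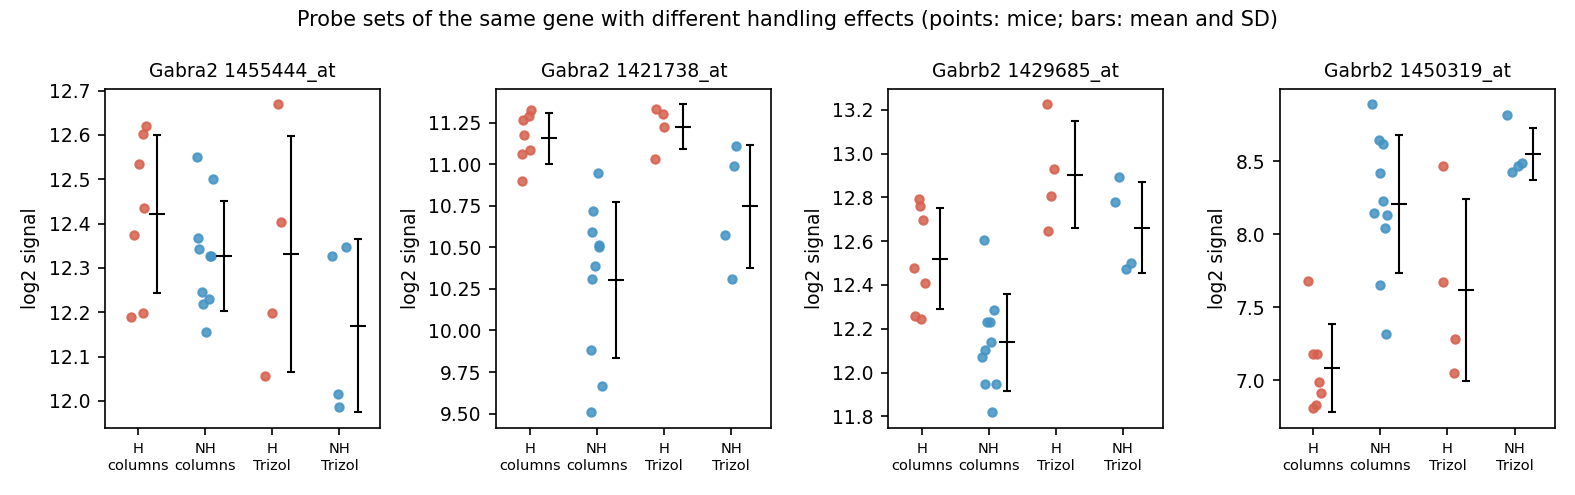
Log2 signal in every mouse of 2 probe sets of Gabra2 and 2 of Gabrb2, by handling and extraction, with mean and SD and a separate axis range per panel. At Gabra2 most handled mice were above the non-handled ones at 1421738_at, which was not so at 1455444_at, and at Gabrb2 handled mice were higher at 1429685_at and lower at 1450319_at.

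The subunit probe sets that differed between extraction methods were mainly lower with columns. Of the 21 probe sets, 12 were called for extraction at that threshold, against 39.8% of all, with 2 higher and 10 lower, where 16.5% and 23.3% of all were. Among the 14 bright ones 11 were called, close to the 72.2% called among all probe sets that bright. Of the 11, 2 were higher and 9 lower, and of all such probe sets 49.8% were higher and 22.4% lower. The median effect was -0.27 over the 21 and -0.36 over the 14, beside -0.16 over all probe sets and 0.24 over all bright ones. After quantile normalization or scaling 12 were again called, 3 higher and 9 lower, while the split over all probe sets turned to 23.9% higher and 18% lower (17.5% lower after scaling) and their median effect to 0.16. The 2 calls that differed were Gabra2 1420299_at, lost on both scales, and Gabrg1 1427227_at, gained on both.

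Gabrb1 fell with columns at its 3 bright probe sets. The effects were -0.57 at 1419719_at, -0.84 at 1435095_at and -1.17 (SE 0.11, adjusted p = 1.36e-10) at 1443205_at. In the last, columns mice ran from 8.95 to 10.18 and Trizol mice from 10.30 to 11.30. How often the extraction groups stood apart in this way over all probe sets was not counted. Gabrb2 was lower at 1429685_at (-0.46), 1428203_at (-0.22), 1428204_at (-0.53) and 1428205_x_at (-0.54), with -0.43 and an adjusted p of 0.0524 at 1450319_at. Gabra2 was lower at 1443865_at (-0.53, adjusted p = 5.69e-04) and at the dim 1420299_at (-1.57, adjusted p = 0.0105), and Gabra4 at 1433707_at (-0.22, adjusted p = 0.0346).

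Gabra5 and Gabrg1 were higher with columns. Gabra5 differed by 0.51 (SE 0.081, adjusted p = 2.76e-06), and Gabrg1 at 1460408_at by 0.58 (SE 0.10, adjusted p = 2.08e-05), where columns mice ran from 9.71 to 10.71 and Trizol mice from 8.91 to 9.80. No Gabra3 probe set passed. Probe sets of one gene differed in their extraction effect at 5 of 14 pairs, 1 higher and 4 lower, against 29.3% of all pairs, 10.4% higher and 18.9% lower. At Gabrb1, 1443205_at changed against 1419719_at by -0.60 (adjusted p = 2.01e-05), and at Gabra2, 1443865_at changed against 1455444_at by -0.65 (adjusted p = 2.23e-04). Leaving out H108, NH138, NH144, NH146, NH147, NH165 or NH166 moved the 5 to 3, and the myelin and astrocyte covariates moved it to 1, while calls over all 16752 pairs went from 4907 to 535. On the quantile-normalized scale 3 pairs were higher and 3 lower, against 19% and 13.7% of all, and on the scaled arrays 2 and 4, against 15.2% and 14.9%.

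**Figure D4:**
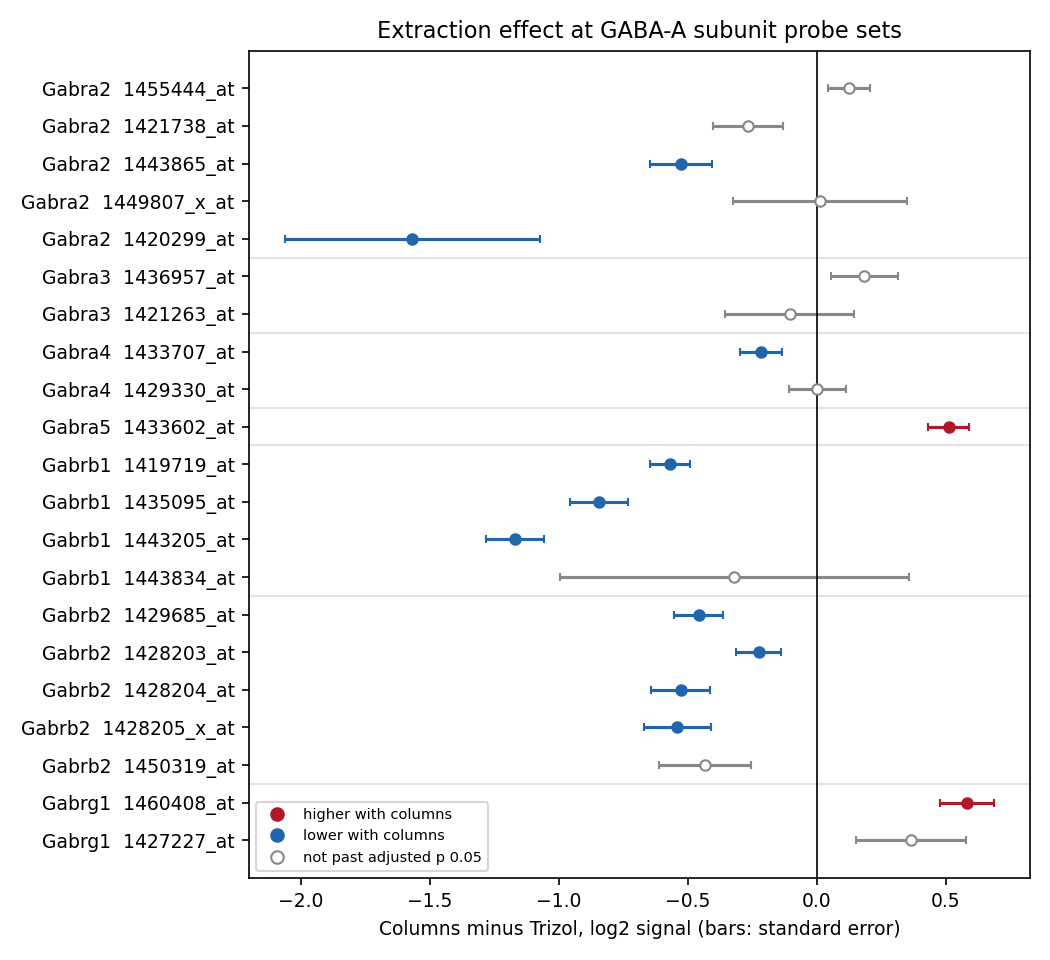
Extraction effect (columns minus Trizol, log2 signal, handling as a term) at each of the 21 probe sets with bars for the standard error over 25 mice. Gabra5 and 1 Gabrg1 probe set were higher with columns (red) and 10 probe sets were lower (blue), among them 3 of the 4 of Gabrb1.

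Markers of several cell types moved with extraction. With columns, 9 of 9 myelin markers, 9 of 10 astrocyte markers and 8 of 10 microglia markers were higher, and 6 of 7 CA1 pyramidal markers too, where 23.7% of 18193 genes and 49.8% of all probe sets at or above the 85th percentile were. After quantile normalization these were 6, 7, 10 and 3. Other lists moved less: 5 of 12 interneuron markers were higher and 1 lower, and 3 of 9 CA2 and CA3 markers higher and 1 lower. Of 9 endothelial markers 2 were higher and 1 lower. Of 8 dentate gyrus markers 0 were higher and 2 lower, and of 7 thalamic and choroid plexus markers 0 were higher and 1 lower. The summed signal of the microglia list ran from 26946 to 41024 over columns mice and from 14528 to 18980 over Trizol mice, and that of the astrocyte list from 82686 to 125464 and from 59722 to 78460. The myelin list ran from 69605 to 116266 and from 51930 to 78629, and the CA1 list from 26525 to 47121 and from 24266 to 37374. With the mean levels of the myelin and astrocyte lists as covariates, 3 of the 21 subunit probe sets differed between extraction methods, in place of 12. Over all 45037 probe sets the count fell in the same fit from 17930 to 4047. MAS 5.0 gives every probe set a signal above 0, so none of these markers was at 0. Since the myelin and astrocyte levels themselves went with extraction, the fit that holds them cannot tell them apart from extraction. The part of any of these marker lists in the subunit differences was not tested.

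With handling, 0 of 7 CA1 and 0 of 8 dentate gyrus markers changed, and 2 of 9 CA2 and CA3 markers, Rgs14 and Necab2, were lower. Over all 18193 genes with 1 probe set each, 4.47% were higher and 9.7% lower in handled mice. Of 12 interneuron markers Gad1 and Gad2 were higher and Pvalb, the calcium-binding protein of fast-spiking interneurons, was lower. The summed signal of the interneuron list ran from 29956 to 34367 in handled and from 28764 to 35193 in non-handled columns mice, and from 25850 to 31582 and from 21343 to 28952 in Trizol mice. Summed signal of the CA2 and CA3 list was 8710 to 10278 in handled and 7947 to 10449 in non-handled columns mice, and 5930 to 8453 and 7178 to 9707 in Trizol mice. Of 9 endothelial markers 4 were lower in handled mice (2 after quantile normalization and 1 after scaling each array). Their sums in handled and non-handled mice ran from 4205 to 5838 and from 4965 to 7561 with columns. With Trizol they ran from 4451 to 5668 and from 4559 to 6584. Of 7 thalamic and choroid plexus markers Rora was higher (0.30) and Folr1 lower (-0.86). Neither call was left after quantile normalization. Sums of that list were 1313 to 1756 in handled and 1026 to 1907 in non-handled columns mice, and 1691 to 1922 and 1748 to 4304 with Trizol. Of 9 myelin markers Ermn was higher, and of 10 astrocyte markers Aqp4. Of 10 microglia markers P2ry12 was higher and C1qc lower. With the myelin and astrocyte levels as covariates the effects were 0.85 at Gabra2 1421738_at and -1.13 at Gabrb2 1450319_at. The part of the interneuron, CA2, CA3, endothelial, microglia, thalamic and choroid plexus markers in the subunit results was not tested.

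The other genes of GABA signaling were counted from 5 lists with 1 probe set per gene, the one with the highest mean signal, for 45 of 53 listed genes. In handled mice 8 of the 45 were higher and 4 lower, where 4.47% and 9.7% of 18193 genes were. Among all probe sets at or above the 85th percentile of mean signal, 14.3% were higher and 7.27% lower. Of the higher genes, Ubqln1, Gad1, Slc12a2, Gad2, Trak2 and Gphn were that bright, and Plcl1 and Kctd12b were not. After quantile normalization 5 of the 45 were higher and 1 lower, and after scaling 4 and 3. Gad2, Gphn, Plcl1 and Kctd12b stayed higher and Clptm1 lower on each of these scales. Of the 7 genes of GABA synthesis, packing and uptake, both glutamate decarboxylases, which make GABA, were higher on the deposited scale: Gad2 by 0.86 (SE 0.15, adjusted p = 3.20e-04) and Gad1 by 0.30 (SE 0.10, adjusted p = 0.0466). The Gad1 call was lost after quantile normalization (adjusted p = 0.106) and after scaling (adjusted p = 0.468), and its second probe set had 0.11 (adjusted p = 0.787). Among the called genes with further probe sets, Gad2, Gphn and Slc12a2 had another one that was higher past the threshold. No further probe set of Gad1, Plcl1, Trak2, Ubqln1, Kctd12b, Clptm1 or Gabrp passed it. The vesicular GABA transporter gene Slc32a1 had 0.11 (adjusted p = 0.661).

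Among 21 genes of receptor anchoring and trafficking, 4 were higher and 3 lower. Gphn, the scaffold protein gephyrin of inhibitory synapses, was higher by 0.34 (adjusted p = 0.0262), Plcl1, which binds receptor beta subunits, by 0.47 (adjusted p = 0.0117), the transport adaptor Trak2 by 0.34 (adjusted p = 0.0176) and Ubqln1 by 0.39 (adjusted p = 0.0387). Clptm1, which holds receptors back in the endoplasmic reticulum, fell by 1.02 (SE 0.13, adjusted p = 2.42e-06), with -1.29 within columns and -0.47 within Trizol. Its second probe set had 0.24 (adjusted p = 0.421). Hap1 and the receptor partner Shisa7 were lower by -0.26 and -0.56 (adjusted p = 0.0423 and 0.0482).

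Of 5 chloride transporters, Slc12a2, which brings chloride into the cell, was higher by 0.31 (SE 0.067, adjusted p = 0.00319), and Slc12a5, which takes it out, had -0.14 (adjusted p = 0.314). After scaling each array these were 0.19 (adjusted p = 0.119) and -0.39 (adjusted p = 0.00928). Among 4 genes of the GABA-B receptor the auxiliary Kctd12b was higher by 0.50 (adjusted p = 0.0249), and Gabbr1 had -0.059 (adjusted p = 0.713). After scaling each array Gabbr1 had -0.30 (adjusted p = 0.0447). Of 8 other GABA-A subunits with a probe set, Gabrp was lower (-1.11, adjusted p = 0.0255) at the 49.6th percentile of mean signal.

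**Figure D5:**
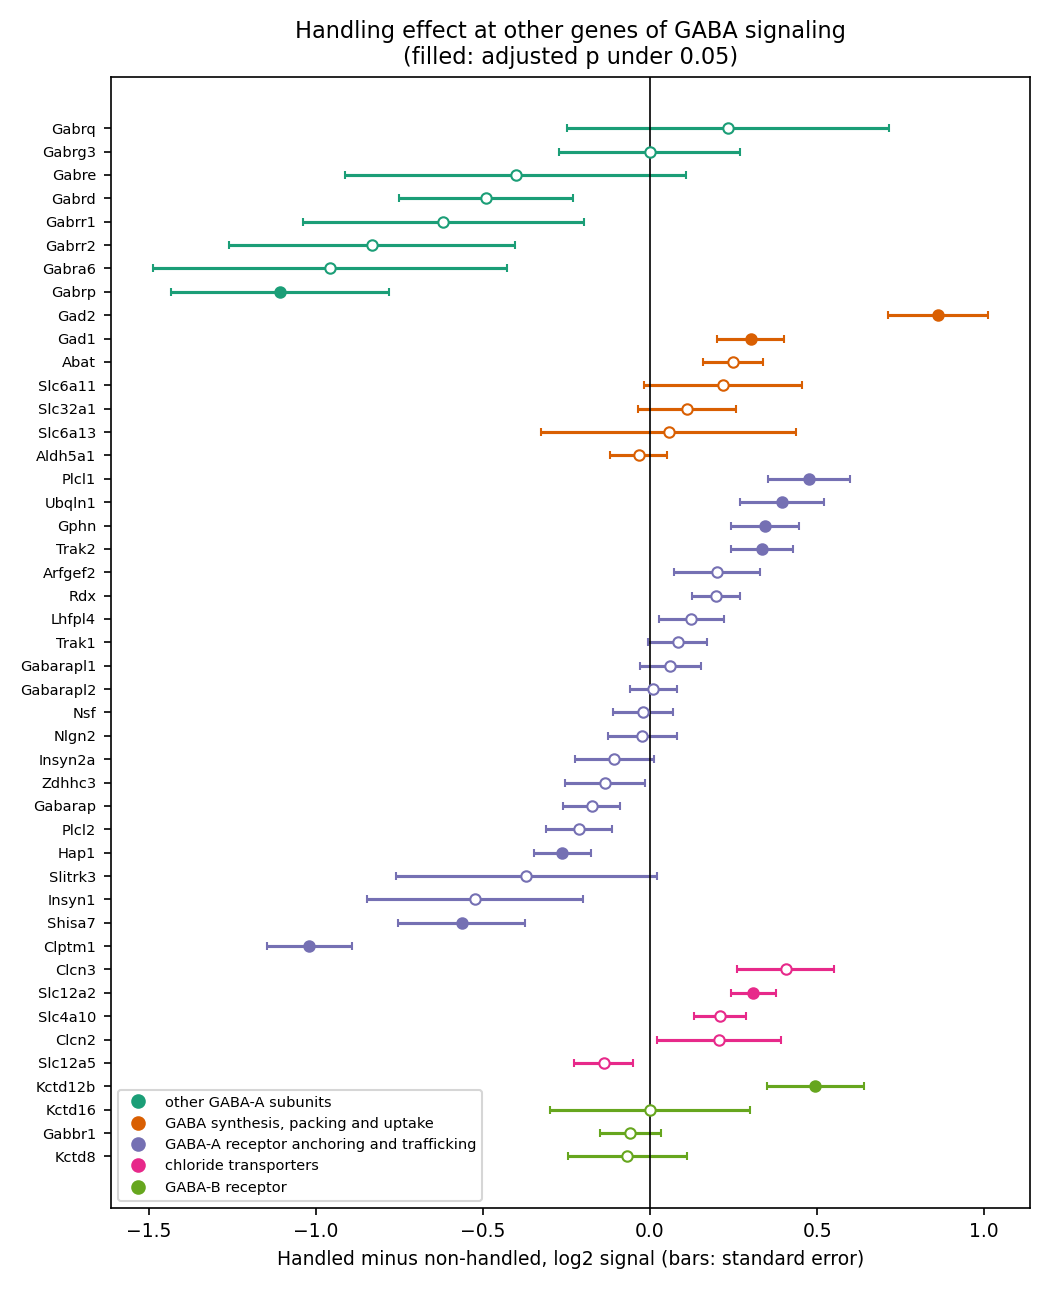
Handling effect (handled minus non-handled, log2 signal, extraction as a term) at 45 other genes of GABA signaling, 1 probe set per gene, colored by list, with bars for the standard error over 25 mice. Filled points passed an adjusted p of 0.05 in limma, 8 above 0 with Gad2 farthest and 4 below 0 with Gabrp and Clptm1 farthest.

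Between extraction methods, 15 of the 45 genes were higher with columns and 7 lower, where 23.7% and 17.5% of 18193 genes were. Gabarap, which carries receptors to the membrane, was higher by 1.25, Slc32a1 by 0.99, the delta subunit Gabrd by 0.95 and Gabarapl1 by 0.71. Those with the lowest values were the gamma subunit Gabrg3 at -1.69, Insyn2a at -1.31, Arfgef2 at -1.26 and the chloride channel Clcn2 at -0.70, which had an adjusted p of 0.356 after quantile normalization.

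The subunits did not vary together from mouse to mouse as one group. After handling and extraction were removed, the Pearson r between the brightest probe sets of pairs of the 7 genes ran from -0.49 (Gabra3 and Gabrg1) to 0.63 (Gabrb1 and Gabrb2) over 25 mice, with 0.52 for the head-to-head neighbors Gabra4 and Gabrb1. Each gene's nearest neighbors in this measure were picked from 19579 probe sets of the brighter part of the array. With so many candidates and 25 mice, high r can arise by selection, so the neighbors are listed only as description. That they were not subunit genes does not bear on whether the subunits varied together. The neighbors were Ssb (r = 0.76) and Snd1 (0.74) for Gabra2, and Hsd17b12 (0.88) and Srsf5 (0.87) for Gabra3. For Gabra4 they were Opcml (0.80) and Eif5b (0.79). They were Idh1 (0.79) and Fam172a (0.76) for Gabra5, Tmx1 (0.76) and Tmem168 (0.76) for Gabrb1, Sf3b1 (0.87) and Nufip2 (0.86) for Gabrb2, and Snhg6 (0.87) and Sarnp (0.86) for Gabrg1. With the 2 farthest mice left out, r of these neighbors ran from 0.63 (Eif5b) to 0.84 (Hsd17b12). All these points share an array, and so its scaling and RNA quality, with each other.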

How the data were processed

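CA1 RNA of 25 mice was measured on 1 array each. The authors deposited intensity values, MAS 5.0 signal made in Affymetrix Expression Console 1.1 on a linear scale, with no normalization of the distributions between arrays. The log2 of each signal was taken here. Extraction was read for each mouse from the sample labels, which give positions in the list of samples. None of the 25 arrays was left out, and 0 columns belonged to other samples. Of 45101 probe sets, 64 controls were left out. The annotation gives 34958 probe sets 1 gene, 932 several and 9211 none, and 34754 symbols were updated through the gene identifier. Values at the scanner ceiling numbered 24.

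All 45037 probe sets were fitted with limma 3.58.1 in R 4.3.3, with handling and extraction as terms, a trended prior and Benjamini-Hochberg adjustment over the table, at an adjusted p under 0.05. Further fits held the interaction, each extraction method alone, and, over the 16752 pairs of all genes, the difference from the gene's brightest probe set. Tests were two-sided. The number of mice limits the precision, and so does the smaller number of litters, since handling was given by litter. The fits were tested on simulated data with known changes.

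Every probe set of a member gene is given. Of the other lists, called genes are named (for extraction, the 4 largest per direction), and for each subunit the 2 genes with the highest r of residuals. Members and lists were chosen with earlier results of these data known. Promoter sequences and positions come from RefSeq for GRCm38.p6, and all 7 genes matched. Figures were drawn with matplotlib 3.10.9. Alternatives were other normalizations, an offset of 32, a filter on dim probe sets, no trend, array weights, covariates, each mouse left out and, chosen after seeing the data, leaving out the 3 arrays with the highest mean signal.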

Additional observations from a re-analysis of the deposited data

Results flagged for a closer look

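Within each group of mice of one extraction method, a single mouse far from the others was found in 7 of 84 tests of Dixon's ratio at 95%, and chance flags about 1 in 20 groups. In handled columns mice, H108 had a log2 signal of 6.35 at Gabra3 1421263_at, where the next mouse had 6.90, and H116 had 11.45 at Gabra4 1433707_at, where the next had 11.67. H123 had 7.68 at Gabrb2 1450319_at, above the next at 7.18, and was the 1 handled columns mouse that was not below every non-handled one there. In non-handled columns mice, NH166 had 8.95 at Gabrb1 1443205_at (next 9.51), and NH162, the array with the highest mean signal, had 10.71 at Gabrg1 1460408_at (next 10.21). In non-handled Trizol mice, NH144 had 9.20 at Gabra4 1429330_at (next 9.53) and NH146 had 8.82 at Gabrb2 1450319_at (next 8.49).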

How the results depend on the processing

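No paired analysis was possible because the numbers in the labels name single mice and no number occurs in both groups. Of the 21 subunit probe sets, 8 were called for handling. The count was 4 after quantile normalization, 3 after scaling each array to the same mean and variance, 5 with no trend in the prior, 2 with no extraction term, 5 without the 3 arrays with the highest mean signal (chosen after seeing the data), and 5 (without H108, H110 or H118) to 10 (without NH142) with each mouse left out. The 12 calls for extraction became 3 with myelin and astrocyte levels as covariates, where calls over all 45037 probe sets went from 17930 to 4047, and ran from 10 to 13 with each mouse left out. Within columns the 5 calls became 3 after scaling, 2 with no trend and 3 without those 3 arrays, and ran from 4 to 6 with each mouse left out. For differences between probe sets of one gene, the 6 handling calls became 3 after quantile normalization, 2 after scaling, 3 with no extraction term and 3 without those arrays, and ran from 3 (without H108) to 6. The 5 extraction calls on these differences became 3 with no trend and 1 with the marker covariates, and ran from 3 (without H108, NH138, NH144, NH146, NH147, NH165 or NH166) to 6 (without NH142). The cause of these moves was not tested. Counts of 0 for the interaction and within Trizol stayed 0 in the alternatives run. The covariates were not run within Trizol, and the filter on dim probe sets removed Gabra2 1420299_at and Gabrb1 1443834_at.

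Calls for handling at Gabra2 1420299_at, Gabra5 1433602_at and Gabra3 1436957_at were lost in 17, 13 and 7 of the 25 fits that leave out 1 mouse, with adjusted p up to 0.0970 (without H108), 0.0815 (without H113) and 0.0810 (without H109). The reversed effects were all of probe sets that were not called: Gabra3 1421263_at was 0.073 after quantile normalization and 0.064 after scaling, Gabra2 1455444_at -0.026 after scaling, Gabra4 1429330_at 0.0089 with the 3′ to 5′ covariates, and Gabrb2 1428204_at 0.056 with the marker covariates and 0.027 with no extraction term. With 1 mouse left out, Gabrb2 1428204_at turned above 0 in 7 fits, and the 25 values ran from -0.053 to 0.044. Gabrb2 1428205_x_at turned to -0.0076 in 1 fit, and its values ran from -0.0076 to 0.12.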
